A study of Mus musculus with 2 samples.

Results

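The genes described here carry glutamate, GABA or related amino acids across the membrane, or convert glutamate, in glia. They are Slc1a2, Slc1a3, Glul, Glud1, Slc38a3, Slc6a11 and Slc7a10. They were picked by gene symbol, 7 of the 32285 genes in the count tables, and all 7 were found. The tables come from single-cell RNA sequencing of dissociated mouse cortex. The Fam69c knockout (KO) library and the wild-type (WT) library were each a pool of cortices from male mice aged 4 months. The labels name 7 mice without saying whether that is the number per genotype. They give neither a strain nor the kind of knockout allele. Both pools were dissociated in the same way, and cells were sorted by flow cytometry after staining with 7-AAD, a dye that enters dead cells. Each genotype gave 1 library, prepared with the 10x Genomics 3′ kit of version 3.1. No replicate exists, so no difference between the libraries could be tested, and genotype and pool cannot be told apart. All intervals below are exact 95% intervals and cover counting error only.

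Glutamate released at synapses is cleared mainly by astrocytes. The carriers Slc1a2 (GLT-1) and Slc1a3 (GLAST) take it up, glutamine synthetase (Glul) joins it to ammonia to give glutamine, and glutamate dehydrogenase (Glud1) turns it into alpha-ketoglutarate in mitochondria. The glutamine carrier Slc38a3 (SNAT3) moves glutamine across the membrane towards neurons, which make new transmitter from it. Slc6a11 (GAT-3) takes up GABA, and Slc7a10 (Asc-1) exchanges small neutral amino acids such as glycine and D-serine.

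All 7 genes are protein coding. On mm10, with GENCODE M21 positions, Slc1a2 lies on chromosome 2 (102658659 to 102790784, plus strand), Slc1a3 on chromosome 15 (8634124 to 8710764, minus strand) and Glul on chromosome 1 (153899944 to 153909723, plus strand). Glud1 lies on chromosome 14 (34310727 to 34345265, plus strand), Slc38a3 on chromosome 9 (107650634 to 107669530, minus strand), Slc6a11 on chromosome 6 (114131241 to 114249952, plus strand) and Slc7a10 on chromosome 7 (35186385 to 35201114, plus strand). Promoter sequences from RefSeq on GRCm38.p6 were matched by symbol for 6 of the 7, and Slc38a3 had no match. The 150 bases before the annotated start are shown for the 2 glutamate carriers, for Glul, which was also high in other cell types, and for Slc7a10, the member that was higher in KO astrocytes. They are chr2:102706288-102706437 on the plus strand for Slc1a2, chr15:8710808-8710957 on the minus strand for Slc1a3, chr1:153899779-153899928 on the plus strand for Glul and chr7:35186235-35186384 on the plus strand for Slc7a10. The RefSeq start used for Slc1a2 lies inside the longer gene span given above. Sequences run 5′ to 3′, and capitals mark the GC box, the CCAAT box and the core of the cAMP response element, searched on both strands. The letters of the GC box are GGGCGG. The CCAAT box is named after its letters. The letters searched for the core of the cAMP response element are TGACG, and those of the TATA box, searched as well, are TATAAA. No marked stretch overlaps another.
Slc1a2: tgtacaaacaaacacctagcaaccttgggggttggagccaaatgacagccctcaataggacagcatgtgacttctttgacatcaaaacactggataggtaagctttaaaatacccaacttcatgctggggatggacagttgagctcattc
Slc1a3: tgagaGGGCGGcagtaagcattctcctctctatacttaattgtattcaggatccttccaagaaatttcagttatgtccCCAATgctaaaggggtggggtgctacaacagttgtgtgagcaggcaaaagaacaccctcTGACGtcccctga
Glul: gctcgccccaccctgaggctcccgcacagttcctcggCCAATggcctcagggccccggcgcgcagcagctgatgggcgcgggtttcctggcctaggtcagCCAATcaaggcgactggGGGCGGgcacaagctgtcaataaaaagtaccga
Slc7a10: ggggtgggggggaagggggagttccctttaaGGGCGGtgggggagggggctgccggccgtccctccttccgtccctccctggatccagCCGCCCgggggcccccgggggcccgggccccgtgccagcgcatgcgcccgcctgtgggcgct
The GC content of these windows differed widely, at 44.7% for Slc1a2, 47.3% for Slc1a3, 66.0% for Glul and 79.3% for Slc7a10, against a median of 54.0% over 32851 promoter windows. The windows of Slc6a11 and Glud1 were the other two GC-rich ones, at 78.7% and 83.3%. Slc1a2 had 0 CpG dinucleotides, Slc1a3 had 2, Glul 11, Slc7a10 13, Slc6a11 21 and Glud1 27, and the median window had 4. The GC box was present in 5 of the 6 windows and in 28.6% of all windows. The CCAAT box was present in the windows of Slc1a3 and Glul and in 24.5% of all windows, and the core of the cAMP response element in that of Slc1a3 and in 13.3% of all. The Slc1a2 window held none of the 4 motifs, and the TATA box, present in 7.57% of all windows, was in none of the 6. These are matches of letters only.

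Counts are of unique molecular identifiers (UMIs), each of which stands for 1 captured transcript. There were 9182 barcodes with 75473717 UMIs in the KO table and 7150 barcodes with 57166105 UMIs in the WT table. After filtering, 7032 KO and 4940 WT cells remained, with 17 barcode sequences present in both libraries. Cells were put into types one by one from 139 marker genes of 18 types, none of them a member. Astrocyte-gated cells numbered 4031 in the KO library and 1995 in the WT library, 57.3% and 40.4% of the cells. Their median cell held a UMI of all 10 astrocyte markers in both libraries. Their median depth was lower in the KO library, at 8985 UMIs against 12399 UMIs in the WT library. Oligodendrocyte-gated cells numbered 795 KO and 614 WT, neuroblast-gated cells 449 and 224, microglia-gated cells 294 and 235, and endothelial-gated cells 247 and 141. Neuron-gated cells numbered 0 KO and 2 WT, so the neuronal side of the glutamate and GABA cycle was not measured here. The targeted gene, listed under its symbol Dipk1c, had 1196 UMIs (33.9 CPM) in KO astrocytes and 1433 UMIs (60.3 CPM) in WT astrocytes. The labels do not say which part of the gene was removed, so a 3′ count neither checks nor contradicts the KO label.

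Levels are given as CPM, the UMIs of a gene over all UMIs of the cell type times 1000000. Each transcript is counted once from its 3′ end, so the counts are not divided by transcript length. All 7 genes were highest in astrocyte-gated cells in both libraries. The plot of levels by cell type shows the gap to the next cell type, which was wide for Slc1a2, Slc1a3, Slc6a11 and Slc7a10 and narrow for Glul and Slc38a3.

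**Figure D1:**
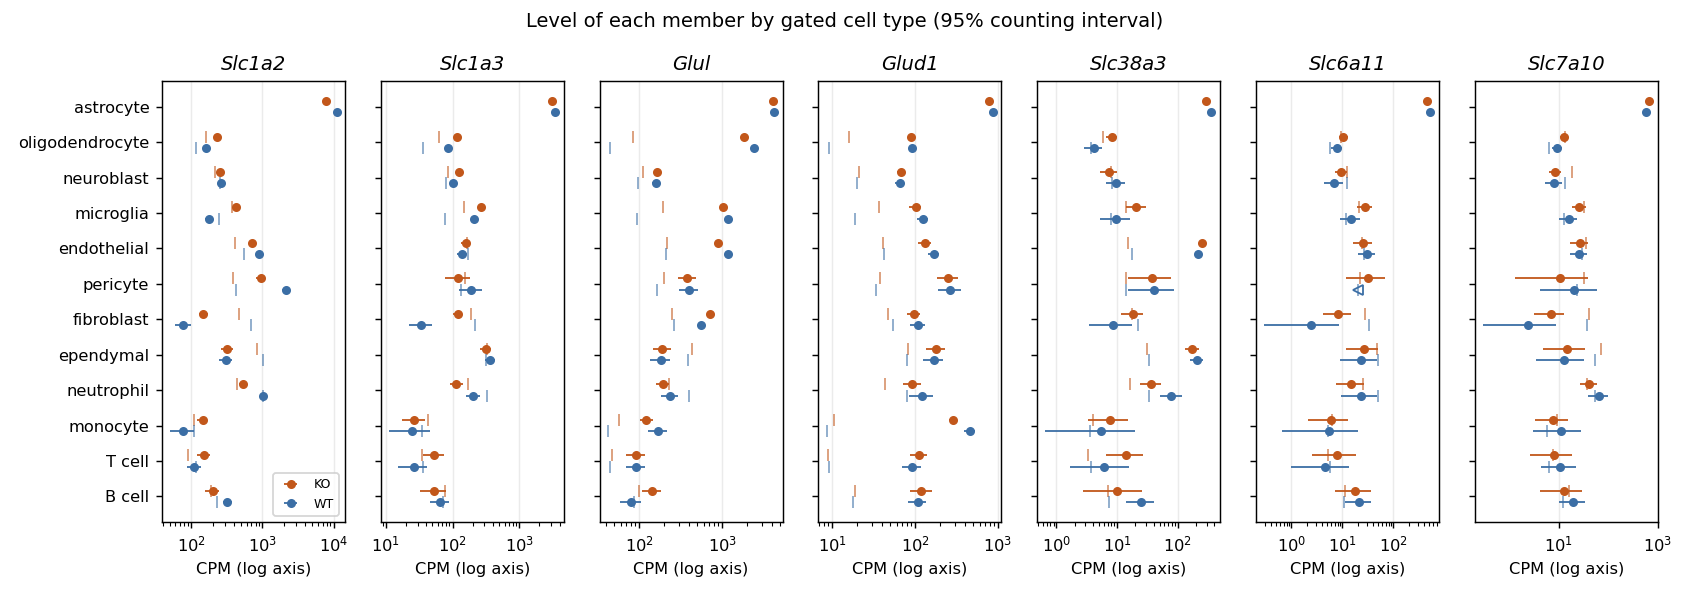
Level of each gene in CPM (horizontal log axis) in 12 gated cell types, KO above WT in each row, with exact 95% Poisson intervals as bars. A short vertical tick is the level the gene would have if it were present only at the share of its astrocyte level shown by 9 astrocyte reference genes, and an open triangle marks a count of 0 at the level of 3 UMIs. Glul lies well above its tick in oligodendrocyte-, microglia- and endothelial-gated cells, and Slc38a3 in endothelial- and ependymal-gated cells, while Slc6a11 and Slc7a10 lie nearer to theirs outside astrocytes.

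The 2 glutamate carriers were the most abundant members with Glul. Slc1a2 stood at 7885 CPM in KO astrocytes (7856 to 7914) and 11020 CPM in WT astrocytes (10978 to 11063). Slc1a3 stood at 3131 CPM in KO astrocytes and 3457 CPM in WT astrocytes. The 2 enzymes differed in level, Glul with 4140 CPM in KO and 4218 CPM in WT astrocytes and Glud1 with 780.2 CPM in KO and 863 CPM in WT astrocytes. Slc38a3 had 294 CPM in KO and 357 CPM in WT astrocytes, the lowest level among the members. Slc6a11 had 454 CPM in KO and 528 CPM in WT astrocytes. Slc7a10 had 678 CPM in KO and 589 CPM in WT astrocytes and was the only member with a higher level in the KO library there. Together the 7 genes held 1.74% of all UMIs of KO astrocytes and 2.10% of those of WT astrocytes.

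Most astrocyte-gated cells carried most of the members. Slc1a2 had a UMI in 99.9% of KO and 99.8% of WT astrocytes, and Slc38a3, the least detected, in 83.6% of KO and 90.6% of WT astrocytes. Such shares would also count any free RNA that enters a droplet, which was not measured here. T cells, which are not known for Slc1a2, held a Slc1a2 UMI in 55.9% of 93 KO and 51.5% of 68 WT cells. Their median depths were 6075 and 8390.5 UMIs, and the source of these UMIs was not tested. With every cell thinned to 2000 UMIs, which left 3818 KO and 1889 WT astrocytes, Slc38a3 was seen in 43.5% of KO and 49.7% of WT cells and Slc6a11 in 57.3% of KO and 64.2% of WT cells. At that depth the median KO astrocyte showed 5 of the 7 genes and the median WT astrocyte 6, and all 7 were seen in 13.5% of KO and 16.8% of WT astrocytes. The counts per cell spread widely. In counts per 10000 UMIs of the cell, the 10th, 50th and 90th percentiles of Slc1a2 were 43.8, 74.5 and 126 in KO astrocytes and 60.5, 104 and 159 in WT astrocytes, so the middle of the WT cells lay between the middle and the upper end of the KO cells. For Glul the same percentiles were 14.6, 38.5 and 59.7 in KO astrocytes and 15.4, 38.1 and 60.7 in WT astrocytes, which nearly coincide.

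Outside astrocytes, 9 astrocyte genes that are not members served as a yardstick for astrocyte RNA in other cells. They were chosen after the levels were seen and stood in oligodendrocyte-gated cells at 2.02% (KO) and 1.06% (WT) of their astrocyte level, in microglia-gated cells at 4.73% and 2.21%, and in endothelial-gated cells at 5.23% and 4.94%. Glul was far above that yardstick in all 3 types. It reached 1814 CPM in KO and 2405 CPM in WT oligodendrocytes, which is 43.8% and 57.0% of its astrocyte level. In microglia-gated cells it stood at 1016 CPM (KO) and 1182 CPM (WT), and in endothelial-gated cells at 887 CPM (KO) and 1172 CPM (WT). Glul thus ran from astrocytes to oligodendrocytes to microglia in both libraries with intervals that did not overlap, while microglia and endothelial cells had overlapping intervals in the WT library (1126 to 1239 and 1107 to 1241 CPM). Fibroblast-gated cells, a class led by Mgp and Igfbp6, had 717 CPM (KO) and 560.1 CPM (WT), 17.3% and 13.3% of the astrocyte level, beside a yardstick of 5.96% and 6.23%. Glul was low in neuroblasts (166 and 157 CPM), T cells (90.4 and 91.3 CPM) and B cells (142 and 79.5 CPM).

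Slc38a3 had a second high site in endothelial-gated cells, with 254 CPM in the KO library (240 UMIs) and 216 CPM in the WT library (221 UMIs), 86.2% and 60.6% of its astrocyte level. A UMI was present in 57.9% of KO and 66.0% of WT endothelial cells, against 7.92% of KO and 5.70% of WT oligodendrocytes. The UMIs were spread over the endothelial cells, with 18.3% (KO) and 24.9% (WT) of them in the 5% of cells with the most. Ependymal-gated cells, 29 KO and 22 WT, had 170.3 CPM (KO) and 204 CPM (WT), 57.9% and 57.1% of the astrocyte level, beside a yardstick of 10.6% and 9.27%. The endothelial and ependymal intervals overlapped in the WT library (189 to 247 and 156 to 261 CPM) and did not overlap in the KO library (223 to 288 and 129.7 to 219.7 CPM).

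Glud1 was measured in all 12 types drawn in the plot of levels. Its next highest level after astrocytes was in monocyte-gated cells, at 288 CPM in 74 KO cells and 456 CPM in 22 WT cells, 36.9% and 52.8% of the astrocyte level. The yardstick there was 1.37% (KO) and 0.994% (WT), and no cluster was named monocyte from the same markers. Pericyte-gated cells followed with 250.4 CPM (KO) and 264 CPM (WT), with intervals that overlapped those of monocytes in the KO library (184 to 333 and 256 to 323 CPM) and not in the WT library (187 to 360.3 and 389 to 530.5 CPM). In the other types of that plot, which leaves out erythroid-gated cells, Glud1 lay between 65.2 and 179 CPM. Its lowest levels were in neuroblasts, with 66.9 CPM (KO) and 65.2 CPM (WT).

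The other members lay nearer to the yardstick outside astrocytes. Slc6a11 in oligodendrocytes was at 2.31% (KO) and 1.47% (WT) of its astrocyte level and Slc7a10 at 1.88% and 1.58%. Slc1a3 stood above it in microglia-gated cells, at 8.61% (KO) and 6.12% (WT) of the astrocyte level, or 269.5 and 212 CPM, and was present in 61.6% of KO and 60.4% of WT microglia. Ependymal-gated cells had Slc1a3 at 318 CPM (KO) and 365 CPM (WT), 10.1% and 10.6% of the astrocyte level, close to their yardstick. Slc1a2 stood there at 4.06% (KO) and 2.76% (WT), and Glul, Slc6a11 and Slc7a10 were also below the yardstick, while Slc38a3 and Glud1 were above. In fibroblast-gated cells Slc1a2 was below it too, at 1.87% (KO) and 0.701% (WT), while Glul and Glud1 were above. In these classes a level near the yardstick does not show how much was astrocyte RNA. Slc1a2 was above the yardstick in endothelial-gated cells, at 9.10% (KO) and 8.12% (WT) of its astrocyte level beside 5.23% and 4.94%. There 56.8% of the KO and 62.0% of the WT UMIs were in the 5% of cells with the most. Slc1a2 was also above the yardstick in pericyte-gated cells, with 954 CPM (KO) and 2115 CPM (WT). A UMI was present in 61.7% of the 60 KO and 64.5% of the 31 WT pericytes, and the UMIs were unevenly spread, with 45.3% of them in 3 KO cells and 64.2% in 2 WT cells. Erythroid-gated cells, 76 KO and 424 WT and mostly of low depth, held every member at 16.1% to 26.6% of the astrocyte level, with a yardstick of 19.3% (KO) and 18.1% (WT), and are not described further.

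The main comparison set KO astrocytes against WT astrocytes, as log2 of KO over WT. Slc1a2 was lower in the KO library by the most, at -0.48 (-0.49 to -0.48), followed by Slc38a3 at -0.28 (-0.32 to -0.24) and Slc6a11 at -0.22 (-0.25 to -0.18). Glud1 was at -0.15, Slc1a3 at -0.14 and Glul at -0.03 (-0.04 to -0.02). Slc7a10 was higher in the KO library, at 0.20 (0.17 to 0.23). With 10 CPM added on both sides, and counting genes with at least 50 UMIs over both libraries as measured, none of the 7 members was past 1.5-fold in either direction, beside 0.336% of 13373 measured genes past it and higher in KO and 0.778% past it and lower in KO. Slc1a2 came nearest, and 2.49% of the measured genes were lower still. The median log2 ratio of the members was -0.14 and that of all measured genes -0.04, with 7881 of the 13373 lower in the KO library.

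**Figure D2:**
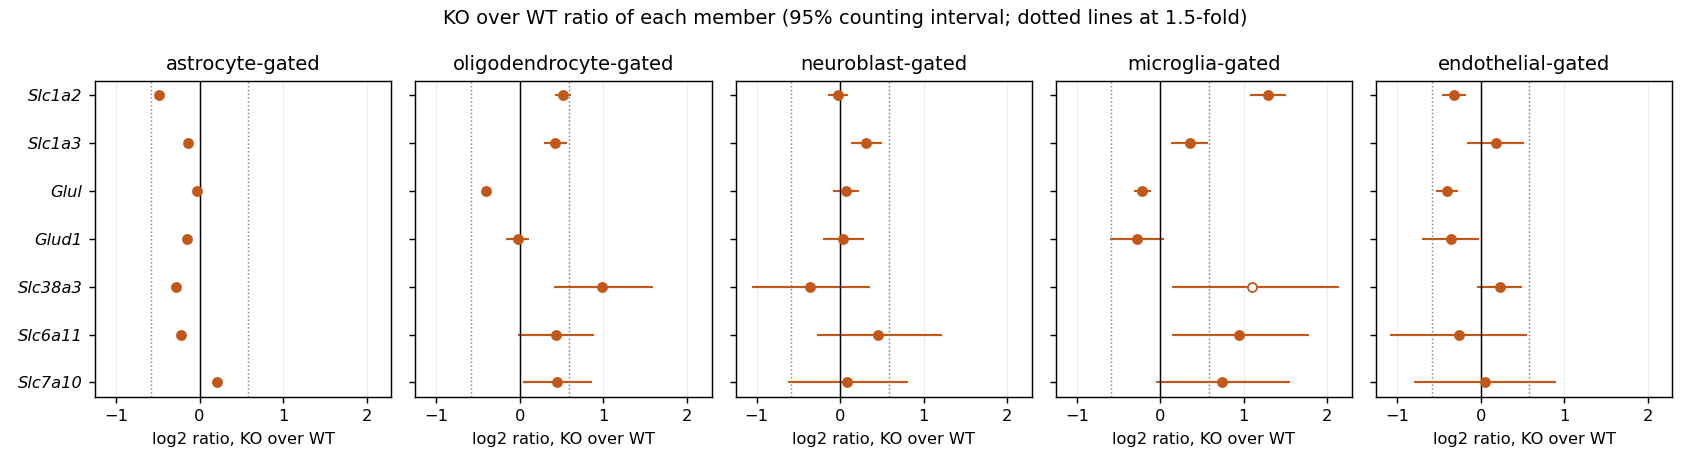
Log2 ratio of KO over WT for each gene (horizontal axis) in 5 gated cell types, with exact 95% intervals and dotted lines at 1.5-fold. An open point has under 50 UMIs over both libraries. In astrocytes 6 of the 7 points lie below 0 and Slc1a2 lies lowest at -0.48, and in microglia the point of Slc1a2 lies at 1.28.

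The size of these differences depended on the scaling. Scaling by edgeR's TMM factors raised every astrocyte ratio by 0.13, and scaling by the median ratio of genes did the same. Glul then became slightly higher in the KO library, at 0.10, so that 2 of the 7 members were higher, and Slc1a3 and Glud1 came to -0.01 each. Slc1a2 stayed lower at -0.35, Slc38a3 at -0.15 and Slc6a11 at -0.09, and Slc7a10 came to 0.34. The same scaling turned the split of all genes past 1.5-fold from 45 higher and 104 lower into 170 higher and 38 lower, while the order of the members stays the same, since every ratio moves by one amount. Long transcripts were lower in KO astrocytes as a group. Slc1a2 has the longest transcript of the 7, at 11595 bases, and genes of similar length had a median log2 ratio of -0.33. Less that median Slc1a2 was at -0.15, Slc38a3 at -0.23 (its length bin had -0.04) and Slc7a10 at 0.13. Whether transcript length had a part in the Slc1a2 difference was not tested.

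Slc1a2 and Slc38a3 were lower in the KO library however the astrocytes were divided. Slc1a2 was lower in 8 of 8 bands of depth or mitochondrial share (-0.64 to -0.17) and in 6 of 6 clusters (-0.51 to -0.17), and Slc38a3 likewise in 8 of 8 bands (-0.45 to -0.14) and 6 of 6 clusters (-0.63 to -0.15). Slc7a10 was the reverse, lower in 1 of 8 bands and 1 of 6 clusters. The weakest Slc1a2 difference by depth was among cells with under 5000 UMIs, where it stood at 8883 CPM in 897 KO cells and 9997 CPM in 352 WT cells. The Glul ratio took both signs over depth, with 2714 CPM (KO) and 3137 CPM (WT) under 5000 UMIs and 3796 and 2813 CPM between 5000 and 10000 UMIs. Glul had 4565 and 4347 CPM between 10000 and 20000 UMIs, and 3983 and 4979 CPM from 20000 UMIs up. The band of 5000 to 10000 UMIs held 1559 KO and 341 WT cells. Within clusters Glul was lower in the KO library in 5 of 6 (-0.20 to 0.14).

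**Figure D3:**
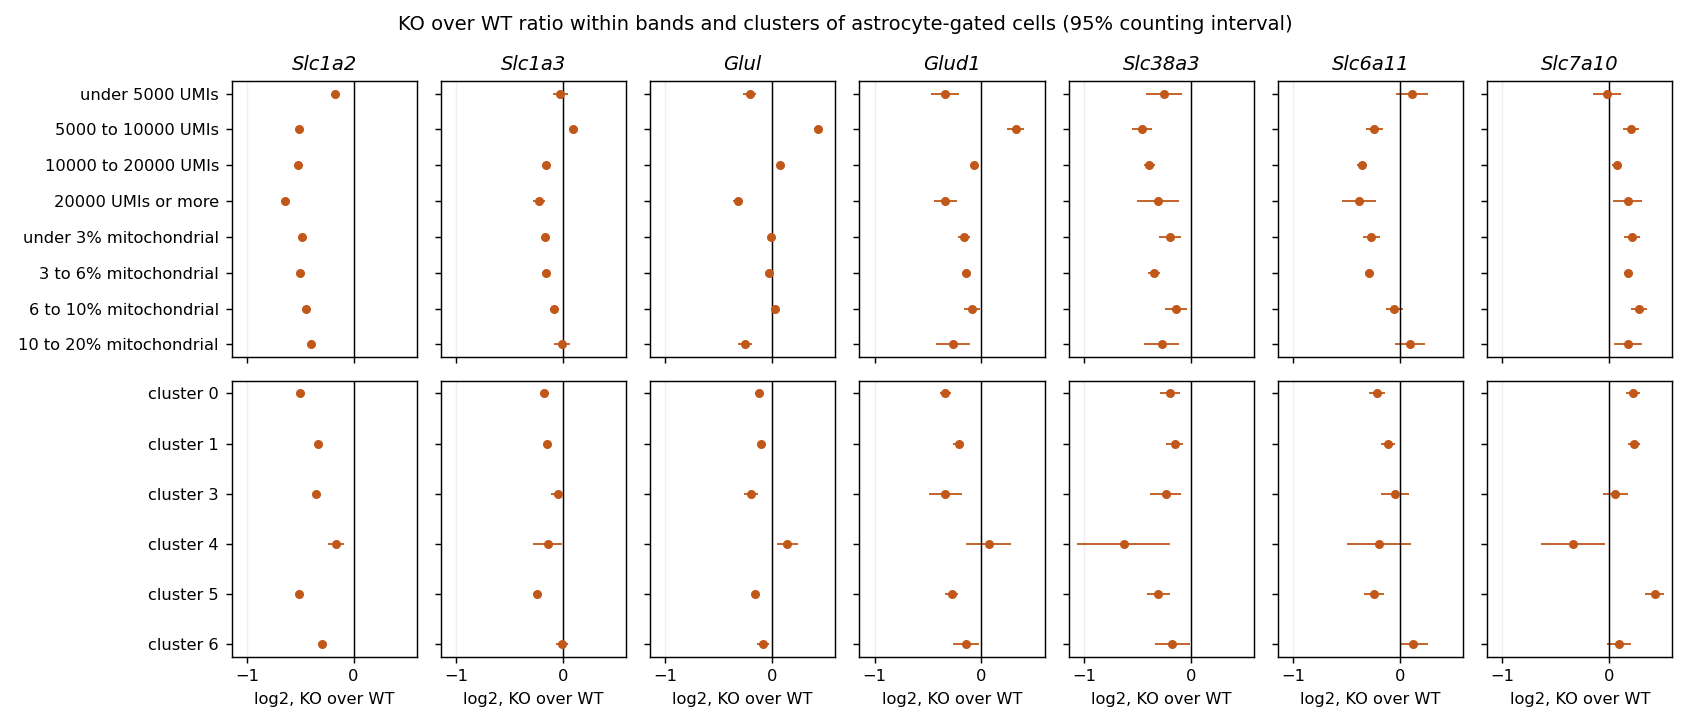
Log2 ratio of KO over WT for each gene within bands of depth and mitochondrial share (upper row) and within clusters (lower row) of astrocyte-gated cells, with exact 95% intervals. Slc1a2 and Slc38a3 lie below 0 in every row, while Glul lies at 0.43 in cells of 5000 to 10000 UMIs and at -0.32 in cells of 20000 UMIs or more.

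Clusters were made without the members and the listed pathway genes. The 6 clusters with at least 100 astrocyte-gated cells in each library were filled differently by the libraries. Cluster 0, led by the metallothioneins Mt1 and Mt3, held 43.7% of KO and 14.6% of WT astrocytes, and cluster 1, led by Trpm3, Dio2 and Trim9, held 12.2% of KO and 45.4% of WT astrocytes. Slc1a2 was lower in cluster 0 than in cluster 1 in both libraries, with 7288 CPM (KO) and 10336 CPM (WT) in cluster 0 and 8843 CPM (KO) and 11120 CPM (WT) in cluster 1. The plain mean of the 6 cluster log2 ratios was -0.36 for Slc1a2, -0.28 for Slc38a3, -0.09 for Glul and 0.12 for Slc7a10. It gives a small cluster the weight of a large one. Cluster 4 held 171 KO and 131 WT astrocyte-gated cells, at median depths of 1775 and 1863 UMIs. It was left unnamed, with close marker scores for astrocytes (0.495) and erythroid cells (0.477). Its ratio was the weakest for Slc1a2 (-0.17), the lowest for Slc38a3 (-0.63), the only one below 0 for Slc7a10 (-0.34) and the only one above 0 for Glul (0.14). Cluster 6 had Agt, Slc6a11 and Slc7a10 as its leading genes, although neither member was used to make it. It held 9.90% of KO and 6.27% of WT astrocytes, with Slc6a11 at 628 CPM (KO) and 575 CPM (WT) and Slc7a10 at 824 and 773 CPM, the highest of the 6 clusters for Slc7a10 in both libraries. Cluster 5, led by Crym, Id3 and Gfap, had the lowest Slc6a11 in both libraries, with 389 CPM (KO) and 460.1 CPM (WT). Its Glul was high, at 4722 CPM (KO) and 5266 CPM (WT).

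The members split into groups by the mitochondrial share of the cell, a measure that tends to be high in damaged cells. Glul had 4643 CPM (KO) and 4685 CPM (WT) in cells with under 3% mitochondrial UMIs, and 2280.2 CPM (KO) and 2716 CPM (WT) in cells with 10 to 20%. Glud1 had 902 CPM (KO) and 1009 CPM (WT) in the lowest band and 445 and 535 CPM in the highest, and Slc1a3 3299.7 and 3704 CPM in the lowest and 2259.7 and 2269.7 CPM in the highest. These 3 genes were thus lower at a high mitochondrial share in both libraries. Slc1a2 went the other way, with 7840.5 CPM (KO) and 10933 CPM (WT) in the lowest band and 9255 and 12193 CPM in the highest. Slc38a3 had 264 CPM (KO) and 302 CPM (WT) in the lowest band and 396 and 477 CPM in the highest, and Slc6a11 389 and 468 CPM in the lowest and 605 and 567 CPM in the highest. Slc7a10 was highest in the band of 6 to 10%, at 788 CPM (KO) and 649 CPM (WT). Cluster 3, with median mitochondrial shares of 10.9% (KO) and 10.1% (WT), showed the same mix. Its Glul was at 1860.3 CPM (KO) and 2130.3 CPM (WT) and its Slc1a2 at 9451 and 12087 CPM. Cluster 3 was also shallow, with median depths of 3132 UMIs (KO) and 5246 UMIs (WT). Mitochondrial share and depth were not separated here.

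**Figure D4:**
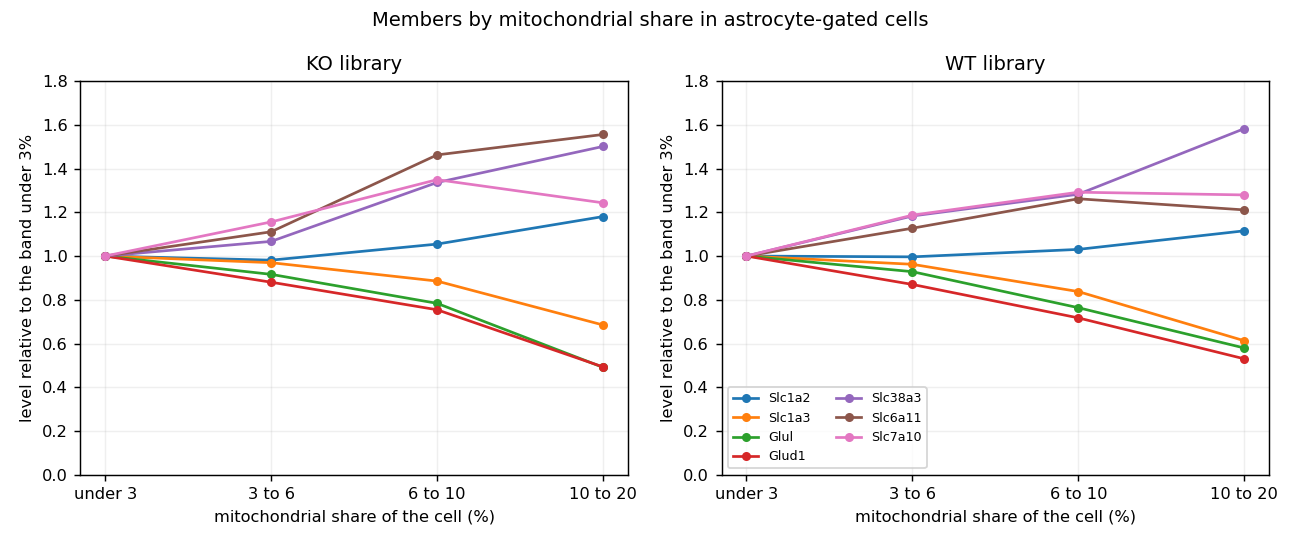
Level of each gene in astrocyte-gated cells, relative to its level in cells with under 3% mitochondrial UMIs (vertical axis), across 4 bands of mitochondrial share, KO library left and WT library right. Glul, Glud1 and Slc1a3 are lowest in the band of 10 to 20% in both libraries, while Slc38a3, Slc6a11, Slc7a10 and Slc1a2 lie above 1 there.

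In oligodendrocyte-gated cells the one member with a high level, Glul, was lower in the KO library, with a log2 ratio of -0.41 (-0.44 to -0.38). It stayed lower in each of 10 alternative settings (-0.44 to -0.32). None of the 7 members was past 1.5-fold there, beside 0.485% of 10515 measured genes higher and 0.77% lower. Slc1a2 had 2245 UMIs (228 CPM) in KO and 1437 UMIs (159 CPM) in WT oligodendrocytes, a log2 ratio of 0.52, opposite to astrocytes. The yardstick of astrocyte RNA was also higher in the KO library there, and 51.2% of the KO and 33.4% of the WT Slc1a2 UMIs were in the 5% of cells with the most. Without the 5% of cells of each library that were richest in astrocyte reference RNA, Slc1a2 stood at 143 CPM (KO) and 147 CPM (WT), a log2 ratio of -0.04. Slc1a3, at 116 CPM (KO) and 86.1 CPM (WT), had a log2 ratio of 0.43, which came to 0.18 without those cells. Slc38a3 had 80 KO and 37 WT UMIs there, a log2 ratio of 0.99 (0.41 to 1.59) that was 0.65 without them. Glud1 was at 90.4 CPM (KO) and 92.0 CPM (WT), a log2 ratio of -0.03, which turned to 0.04 with TMM scaling.

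Microglia-gated cells had the largest ratio of any member. Slc1a2 stood at 427 CPM in the KO library (602 UMIs in 294 cells) and 175 CPM in the WT library (256 UMIs in 235 cells), a log2 ratio of 1.28, or 2.44-fold (2.10 to 2.83). The UMIs were unevenly spread, with 62.6% of the KO and 38.3% of the WT ones in the 5% of cells with the most. The KO cell with the most held 177 of the 602 UMIs and also 48 UMIs of the 9 astrocyte reference genes, and the WT cell with the most held 50 of the 256 UMIs and 20 reference UMIs. Without those 2 cells Slc1a2 was at 307 CPM (KO) and 142 CPM (WT), and without the 5% of cells richest in reference RNA at 219.8 CPM (KO) and 134 CPM (WT), a log2 ratio of 0.71. With cells thinned to 2000 UMIs, which left out 76 KO and 45 WT microglia of lower depth, the log2 ratio was 0.50. A Slc1a2 UMI was absent from 43.5% of KO and 49.8% of WT microglia, at median depths of 5258 and 6944 UMIs. Among the 6 members measured, Slc1a2 and Slc6a11 were past 1.5-fold and higher in KO, beside 2.9% of 7238 measured genes past it and higher and 3.81% past it and lower. Slc6a11 had 39 KO and 21 WT UMIs (log2 ratio 0.94, 0.14 to 1.78). After thinning the ratio was -0.0057, with a Slc6a11 UMI left in only 7 KO and 7 WT cells. Whether astrocyte RNA or joined cells had a part in these 2 ratios was not tested. Glul, at 1016 CPM (KO) and 1182 CPM (WT), was lower in KO microglia, with a log2 ratio of -0.22 (-0.32 to -0.12), and stayed so in 10 alternative settings (-0.31 to -0.17).

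**Figure D5:**
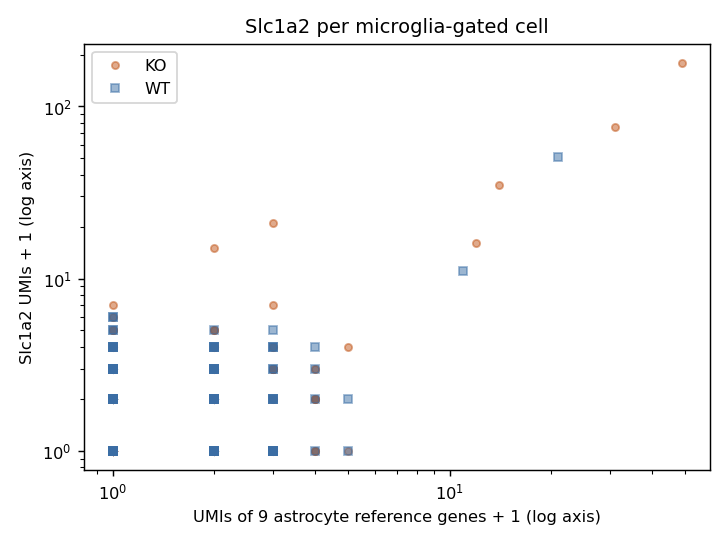
Slc1a2 UMIs plus 1 (vertical log axis) against UMIs of 9 astrocyte reference genes plus 1 (horizontal log axis) in each microglia-gated cell, KO as circles and WT as squares. The KO cell with 177 Slc1a2 UMIs and the WT cell with 50 also hold the most reference UMIs of their library, and 128 KO and 117 WT cells lie at 0 Slc1a2 UMIs.

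In endothelial-gated cells none of the 7 members was past 1.5-fold, beside 3.54% of 6122 measured genes higher and 4.77% lower. Glul was lower in the KO library, with a log2 ratio of -0.40 (-0.53 to -0.27). The Glul ratio turned to 0.12 with cells thinned to 2000 UMIs, which left out 80 KO and 25 WT cells of lower depth. Slc38a3 had a log2 ratio of 0.23 with an interval of the fold that held 1 (0.973 to 1.41). Glud1, at 132 CPM (KO) and 169 CPM (WT), was at -0.36 (-0.70 to -0.02). Slc1a2, at 718 CPM (KO) and 894 CPM (WT), was at -0.32, but 1 WT cell held 315 of the 914 WT UMIs, and thinning turned the ratio to 0.06. In neuroblast-gated cells none of the 7 was past 1.5-fold, beside 0.262% of 9942 measured genes higher and 2.85% lower. Slc1a2 was nearly level there, at 254 CPM (KO) and 258 CPM (WT), a log2 ratio of -0.02 that turned to 0.11 with TMM scaling and was -0.68 when the cells were taken from named clusters. Slc1a3, at 126 CPM (KO) and 101 CPM (WT), was at 0.31, or 1.24-fold (1.09 to 1.42), which turned to a log2 ratio of -0.37 in the named clusters. The named neuroblast clusters hold more cells than the gate. Among them is cluster 7, led by Top2a, Cenpf and Pclaf, with 238 KO and 248 WT cells.

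Other genes of the same pathways were described from 5 lists. They were chosen with earlier results of these data known. In astrocytes no gene of the 5 lists was past 1.5-fold with 10 CPM added, an amount that holds back genes of few CPM. Among the other glutamate carriers, 6 of 12 genes were measured, 3 higher and 3 lower in the KO library, with a median log2 ratio of -0.14. Slc7a11, the cystine and glutamate exchanger, had 380 CPM in KO and 485 CPM in WT astrocytes (log2 ratio -0.35). Slc25a18, a mitochondrial glutamate carrier, had 402 CPM in KO and 354 CPM in WT astrocytes (0.18). Slc1a4, a carrier of alanine, serine and cysteine, had 194 CPM (KO) and 240 CPM (WT), a log2 ratio of -0.31, and the aspartate and glutamate carrier Slc25a12 had 24.7 and 33.1 CPM (-0.43). Less the median of genes of similar transcript length, Slc7a11 was at -0.02.

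Among glutamine carriers and glutaminases, 8 of 10 genes were measured, 3 higher and 5 lower (median -0.04), and with TMM scaling 5 were higher and 3 lower. Slc3a2, the heavy chain shared by several amino acid exchangers, among them Slc7a10 and Slc7a11, had 382 CPM (KO) and 347 CPM (WT), a log2 ratio of 0.14. The glutamine carrier Slc38a2 had 64.2 CPM (KO) and 67.8 CPM (WT), a log2 ratio of -0.08 whose sign TMM scaling turned, and Slc38a1, known mainly from neurons, 9.68 and 7.16 CPM (0.44). In endothelial cells Slc3a2 was past 1.5-fold, with 885 CPM (KO) and 526 CPM (WT), a log2 ratio of 0.75, and so was Slc7a11 with 15 KO and 44 WT UMIs (-1.44). Gcsh, a protein of glycine cleavage, was also past it there with 37 KO and 23 WT UMIs.

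Among genes of glutamate metabolism, 13 of 13 found in the tables were measured, 6 higher and 7 lower (median -0.01). Prodh, which starts proline breakdown towards glutamate, had 242 CPM in KO and 212 CPM in WT astrocytes (log2 ratio 0.19), while Aldh4a1, the next enzyme, had 33.2 CPM (KO) and 41.6 CPM (WT), a log2 ratio of -0.33. The 2 subunits of glutamate-cysteine ligase, the first step of glutathione synthesis, went opposite ways. Gclm, the modifier subunit, had 164 CPM in KO and 127 CPM in WT astrocytes (0.38), and Gclc, the catalytic subunit, had 33.6 CPM in KO and 39.6 CPM in WT astrocytes (-0.24). The Krebs cycle gene Idh3a had 114 CPM (KO) and 108 CPM (WT), a log2 ratio of 0.09.

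Among GABA genes, 8 of 10 were measured, 3 higher and 5 lower (median -0.05), which became 4 and 4 with TMM scaling. Enzymes of GABA breakdown were lower in the KO library, with Abat at 126 CPM (KO) and 154 CPM (WT), a log2 ratio of -0.28, and Aldh5a1 at 48.9 CPM (KO) and 69.5 CPM (WT), a log2 ratio of -0.51. Maob was nearly level, at 83.5 CPM (KO) and 84.2 CPM (WT), and on the higher side with TMM scaling. Elsewhere, Gad1, which makes GABA, was past 1.5-fold and lower in KO neuroblasts, with 87.9 CPM (KO) and 146 CPM (WT), a log2 ratio of -0.73 (-0.92 to -0.55), but was no longer past it with TMM or median ratio scaling. Aldh9a1 was past it and higher in KO microglia, with 48 KO and 25 WT UMIs.

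Among genes of glycine and serine, 9 of 11 were measured, 6 higher and 3 lower (median 0.07). Phgdh, the first enzyme of serine synthesis, had 378 CPM in KO and 256 CPM in WT astrocytes, a log2 ratio of 0.56 (0.52 to 0.61), and was past 1.5-fold with TMM scaling. Psph, the last enzyme of that path, had 151 CPM (KO) and 114 CPM (WT), a log2 ratio of 0.40, while the middle enzyme Psat1 had 218 and 238 CPM (-0.12, with the sign turned by TMM scaling). Slc6a9, the glycine carrier GlyT1, had 32.1 CPM in KO and 47.4 CPM in WT astrocytes (-0.56). Slc7a10, itself a carrier of glycine and serine, was higher in the KO library, as were Phgdh and Psph, while Psat1 and Slc6a9 were lower. Of all measured genes in astrocytes, 85.8% had a lower ratio than Slc7a10. A link between these genes was not tested.

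The genes with the pattern most like each member were sought among 7898 genes over 16 values, 8 cell types in each of the 2 libraries, as Pearson's r of log2(CPM + 10). These values share libraries and depth, and the astrocyte values set much of each r. Slc1a2 was most like Slc4a4 (0.989), Fgfr3 and Ntm, and Slc1a3 most like Tspan7 (0.974), Gpam and Aifm3. Slc6a11 was most like Cspg5 (0.996), Gm6145 and Ngef, and Slc7a10 most like Cspg5 (0.993), Gpr37l1 and Ntsr2. Slc4a4 and Fgfr3 are among the 9 reference genes and Ntsr2 is an astrocyte marker of the gate. Glud1 was most like Slc41a1 (0.984), Pgm1 and Lgr6. The genes nearest to Slc38a3 were Prex2 (0.987), Tnfrsf19 and Slco1c1, the last known as a carrier of endothelial cells and astrocytes. Those nearest to Glul were Chpt1 (0.961), B4gat1 and Smox. Among the members, Slc6a11 and Slc7a10 were most alike (0.989) and Glul and Slc38a3 least (0.554).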

How the data were processed

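Single-cell RNA sequencing was available for 1 KO and 1 WT library. The deposited tables hold UMI counts per gene and barcode, with no normalization. Per the file headers, Cell Ranger 4.0.0 wrote them. Genome mm10, Seurat 3.0 and R 4.0.3 are named, with no role, in the submitters' processing notes. Barcodes were left out when they had under 500 genes or over 20% of UMIs from mitochondrial genes, which removed 18.5% of KO and 27.9% of WT barcodes. Doublets were scored with Scrublet. Its automatic threshold marked 164 KO and 0 WT cells and was taken as failed, so the highest scores were removed at a rate set by the number of cells, 5.99% of KO and 4.11% of WT cells.

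A cell was given a type when the mean of its capped log marker levels was at least 0.25 and led the next type by 0.15, with at least 3 markers present. Leiden clusters (2000 variable genes, 30 principal components, 15 neighbours, resolution 1), named from the same markers, were the alternative. These thresholds were set after seeing the data, and the members and lists were chosen with earlier results of these data known. UMIs were summed per library and type. Levels have exact Poisson intervals, shares exact binomial ones, and ratios exact conditional binomial ones, all covering counting error only. For folds and list medians 10 CPM was added on both sides, and genes needed at least 50 UMIs over both libraries. The genes named are the 7 members, the targeted gene, the 3 most abundant and 3 with the largest ratio of each list in astrocytes, list genes past 1.5-fold and the 3 nearest to each member. Some list genes that this rule names are not reported here. Symbols were matched to GENCODE M21 for 99.8% of genes. The ratio calculation was tested on simulated data. Software was scanpy 1.11.5 with leidenalg 0.10.2 and scikit-learn 1.9.0, scipy 1.17.1, numpy 2.4.6, pandas 2.3.3 and matplotlib 3.10.9 under Python 3.11.15, and R 4.3.3 with edgeR 4.0.16 for TMM factors only.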

Additional observations from a re-analysis of the deposited data

Results flagged for a closer look

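For 4 members the KO over WT log2 ratio had opposite signs in different cell types with intervals that did not reach 0, and the difference between the cell types was not tested. Slc1a2 was at 0.52 in oligodendrocyte-gated and 1.28 in microglia-gated cells, but at -0.48 in astrocyte-gated and -0.32 in endothelial-gated cells. Slc1a3 was at 0.43 in oligodendrocyte-gated, 0.31 in neuroblast-gated and 0.35 in microglia-gated cells, but at -0.14 in astrocyte-gated cells. Slc6a11 was at 0.94 in microglia-gated cells, on 39 KO and 21 WT UMIs, and at -0.22 in astrocyte-gated cells. Slc38a3 was at 0.99 in oligodendrocyte-gated cells, on 80 KO and 37 WT UMIs, and at -0.28 in astrocyte-gated cells. The intervals cover counting error only, and not every sign held in 10 alternative settings. Slc1a2 ran from -0.12 to 0.76 in oligodendrocyte-gated and from -0.67 to 0.06 in endothelial-gated cells. Slc1a3 ran from -0.37 to 0.47 in neuroblast-gated cells, and Slc6a11 from -0.0057 to 1.02 in microglia-gated cells. The other ratios given here outside astrocytes kept their sign in 10 of 10. The 9 astrocyte reference genes were also higher in KO oligodendrocyte-gated cells (82.0 CPM in KO and 49.3 CPM in WT) and microglia-gated cells (192 and 103 CPM). They were nearly level in neuroblast-gated cells (110 and 108 CPM) and lower in KO endothelial-gated cells (212 and 231 CPM). In astrocytes they stood at 4062 CPM (KO) and 4670 CPM (WT). As shares of that level they came to 2.02% (KO) and 1.06% (WT) in oligodendrocyte-gated and 4.73% and 2.21% in microglia-gated cells. The shares were 2.71% and 2.32% in neuroblast-gated and 5.23% and 4.94% in endothelial-gated cells. The part of astrocyte RNA in these results was not tested.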

How the results depend on the processing

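No paired analysis was possible because each genotype has 1 library, and for the same reason no replicate could be left out. In astrocytes, Slc1a2 and Slc38a3 were lower in the KO library in 29 of 29 alternative settings each (-0.64 to -0.15 and -0.63 to -0.11), Slc1a3 in 28, Glud1 in 27, Slc6a11 in 26 and Glul in 23 of 29, and Slc7a10 was higher in 27 of 29. The median log2 ratio of the members, -0.14, was -0.0135 with TMM scaling, -0.0128 with median ratio scaling and -0.0708 less the length trend, and 2 members were higher instead of 1 under both scalings. The median of the other glutamate carriers, -0.14, was 0.00527 with no minimum of UMIs, -0.30 in named clusters and -0.000415 less the length trend. That of glutamine carriers and glutaminases, -0.04, was 0.11 less the length trend, and that of the glycine and serine genes, 0.07, was 0.17 with TMM scaling. Genes past the fold in astrocytes numbered 45 higher and 104 lower, and became 836 and 1405 at a lower fold (a log2 ratio of 0.32), 227 and 770 with 1 CPM added, and 170 and 38 with TMM scaling, which was added after seeing the data, as were the trimming of cells and the splits by cluster, Gfap and Agt. Members higher in KO oligodendrocytes numbered 5, and 3 without the 5% of cells richest in astrocyte reference RNA and 2 with each cell weighed the same. In neuroblasts they numbered 5, and 0 in named clusters, which hold more cells than the gate, and 2 after thinning. In endothelial cells they numbered 3, and 1 in named clusters and 5 after thinning. Slc6a11 in microglia turned to -0.0057 after thinning. The cause of these moves was not tested. Counts of under 100 UMIs, as for Slc6a11, Slc38a3 and Slc7a10 in microglia, leave wide intervals.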

Other observations

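Astrocytes with a Gfap UMI after thinning, 202 KO and 80 WT cells, had Slc1a2 at 8586 CPM (KO) and 11917 CPM (WT), against 7835 CPM (KO) and 11001 CPM (WT) in the 3616 KO and 1809 WT astrocytes without one. Astrocytes with an Agt UMI, 349 KO and 118 WT cells, had Slc7a10 at 711 CPM (KO) and 635 CPM (WT), against 675 CPM (KO) and 584 CPM (WT) in those without. Slc1a2 was thus lower and Slc7a10 higher in the KO library on both sides of each split shown here. The metallothionein Mt1, chosen after its values were seen, stood at 8756 CPM in KO astrocytes and 3791 CPM in WT astrocytes, a log2 ratio of 1.21. It was also higher in KO microglia (459 CPM in KO and 195 CPM in WT), KO endothelial cells (984 and 642 CPM) and KO oligodendrocytes (729 and 515 CPM). In neuroblasts Mt1 was nearly level (218 CPM in KO and 221 CPM in WT, a log2 ratio of -0.01). The yardstick of astrocyte RNA was 4.73% (KO) and 2.21% (WT) in microglia, 5.23% and 4.94% in endothelial cells and 2.02% and 1.06% in oligodendrocytes. The part of astrocyte RNA in these Mt1 levels was not tested.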
